A study of Mus musculus with 21 samples.

Results

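The 10 genes described here encode the fatty acid elongases Elovl1, Elovl2, Elovl3, Elovl5, Elovl6 and Elovl7 and the fatty acid desaturases Fads1, Fads2, Fads3 and Fads6 of the mouse. They were chosen by name, by matching the Ensembl IDs of the count table to these symbols, and no measured value entered the choice. Each symbol matched 1 of the 52636 gene IDs counted. All 10 genes, 6 elongases and 4 desaturases, passed the filter on low counts, as did 17104 genes in all.

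RNA was sequenced from the livers of 21 wild-type mice, the only genotype in the series. The chow group holds 5 livers, taken after 8 weeks of Normal Chow and labelled week 0. The 2 other groups hold 8 livers each, taken after 8 and after 16 weeks of CDA-HFD, a high-fat diet made from amino acids without choline, on which mice develop steatohepatitis and fibrosis of the liver. The labels give no strain, sex, age or batch, so whether the chow and 8-week livers were of the same age is not known. There is no chow group at 16 weeks, where longer feeding and greater age cannot be told apart. Both diet groups are set against the same chow livers. Nothing in the labels says how far the livers of a group are independent beyond being separate samples, and p-values measure only the spread between these samples.

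Elongases carry out the condensation step that lengthens a fatty acyl-CoA by a pair of carbons taken from malonyl-CoA, and desaturases place a double bond in the chain. Elovl2 and Elovl5 lengthen polyunsaturated fatty acids, and with the delta-6 desaturase Fads2 and the delta-5 desaturase Fads1 they turn the essential linoleic and alpha-linolenic acids into arachidonic, eicosapentaenoic and docosahexaenoic acid, for which the liver is a main site. The other elongases act on saturated and monounsaturated chains: Elovl6 turns palmitate into stearate, and Elovl1, Elovl3 and Elovl7 make longer chains.

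The genes lie on 6 chromosomes of GRCm38, with coordinates from GENCODE M21, and all are protein-coding. Fads3 (ENSMUSG00000024664, chromosome 19, 10041569 to 10060110, plus strand), Fads2 (ENSMUSG00000024665, chromosome 19, 10062765 to 10101746, minus strand) and Fads1 (ENSMUSG00000010663, chromosome 19, 10182888 to 10196877, plus strand) form a cluster, in which the start of Fads2 lies 60.2 kb from that of Fads3 and 81.1 kb from that of Fads1. Elovl3 (ENSMUSG00000038754, chromosome 19, 46131897 to 46135694) is on the same chromosome. The others are Elovl1 (ENSMUSG00000006390, chromosome 4, 118428093 to 118432953), Elovl2 (ENSMUSG00000021364, chromosome 13, 41182381 to 41220405), Elovl5 (ENSMUSG00000032349, chromosome 9, 77917364 to 77984519), Elovl6 (ENSMUSG00000041220, chromosome 3, 129532355 to 129638495), Elovl7 (ENSMUSG00000021696, chromosome 13, 108214404 to 108285683) and Fads6 (ENSMUSG00000044788, chromosome 11, 115279622 to 115297663). Exons of Elovl1 overlap those of Cdc20 on the opposite strand by 53 bp, and over all libraries Elovl1 held 76248 counts against 12557 for Cdc20. Exons of Elovl6 overlap those of the antisense gene Gm35986 by 34 bp (40003 against 627 counts), and those of Elovl3 overlap Pitx3 by 10 bp (320447 against 37 counts). The strand setting of the counting is not given in the sources used here, so reads in these overlaps are uncertain.

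RefSeq promoter sequences (GRCm38.p6, 250 bases before to 50 after a gene's start) were matched for 8 of the 10 genes, all but Elovl3 and Fads1, with 10 promoters in all. The promoters of 5 genes are printed, 5′ to 3′ on the gene's strand. Of these genes, Elovl6 fell on the diet, and Elovl7 and Fads3 rose. Fads2 rose at 8 weeks, as its neighbour Fads3 did and its neighbour Fads1 did not. The promoter of Elovl5 was the only one with an E-box. Capitals mark matches to the motifs searched, in either orientation.
Elovl6, chr3:129532136-129532435, plus strand: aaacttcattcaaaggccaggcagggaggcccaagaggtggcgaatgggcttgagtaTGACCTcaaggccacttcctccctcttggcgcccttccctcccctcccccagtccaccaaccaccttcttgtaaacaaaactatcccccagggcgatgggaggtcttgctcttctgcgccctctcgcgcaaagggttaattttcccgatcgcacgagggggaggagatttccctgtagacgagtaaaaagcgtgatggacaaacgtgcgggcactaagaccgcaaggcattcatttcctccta
Elovl7, chr13:108214154-108214453, plus strand: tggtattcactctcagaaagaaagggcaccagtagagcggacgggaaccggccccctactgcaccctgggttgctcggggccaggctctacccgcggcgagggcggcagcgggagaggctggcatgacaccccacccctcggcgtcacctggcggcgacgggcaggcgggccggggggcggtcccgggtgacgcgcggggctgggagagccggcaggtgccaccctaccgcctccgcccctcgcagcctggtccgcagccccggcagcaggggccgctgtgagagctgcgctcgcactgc
Fads3, chr19:10041298-10041597, plus strand: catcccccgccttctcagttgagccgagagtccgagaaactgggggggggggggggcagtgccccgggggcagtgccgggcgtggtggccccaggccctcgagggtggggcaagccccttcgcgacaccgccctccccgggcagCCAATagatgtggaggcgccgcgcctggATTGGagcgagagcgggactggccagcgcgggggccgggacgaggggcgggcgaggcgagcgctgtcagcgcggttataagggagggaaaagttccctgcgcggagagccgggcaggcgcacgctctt
Fads2, chr19:10101454-10101753, minus strand: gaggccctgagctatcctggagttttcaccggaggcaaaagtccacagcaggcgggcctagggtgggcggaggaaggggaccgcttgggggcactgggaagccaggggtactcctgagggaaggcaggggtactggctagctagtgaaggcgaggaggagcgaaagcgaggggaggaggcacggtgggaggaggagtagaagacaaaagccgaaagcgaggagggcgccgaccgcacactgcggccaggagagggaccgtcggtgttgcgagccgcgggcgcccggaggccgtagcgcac
Elovl5, chr9:77917115-77917414, plus strand: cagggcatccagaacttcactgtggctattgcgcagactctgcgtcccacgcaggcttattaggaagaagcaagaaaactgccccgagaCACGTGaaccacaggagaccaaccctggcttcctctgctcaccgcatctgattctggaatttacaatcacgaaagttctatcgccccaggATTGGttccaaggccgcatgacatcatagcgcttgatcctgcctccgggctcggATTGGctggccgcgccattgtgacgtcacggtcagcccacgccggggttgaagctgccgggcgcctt
The motifs, each searched on both strands, were TCACNCCAC (the core of the sterol regulatory element bound by SREBP), CACGTG (the E-box core of the carbohydrate response element bound by ChREBP), AGGTCA (the half-site of nuclear receptors such as PPAR and LXR) and CCAAT (the box bound by NF-Y). TCACNCCAC was in 0 of the 10 promoters, and in 1.24% of all 32851 promoters of this length. CACGTG was in the Elovl5 promoter alone, against 7.15% of all promoters. AGGTCA was in 3 promoters, those of Elovl6 and Fads6 and an Elovl1 promoter (16.3% of all), and CCAAT was in 3, those of Elovl5 and Fads3, each with 2 matches, and the other Elovl1 promoter (37.4% of all). No matches of different motifs overlapped. A match describes the letters of these windows, and a missing match says nothing of a factor's binding elsewhere.

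Library sizes were 33522456 to 42586342 counts on chow, 29037525 to 45868842 after 8 weeks and 35254088 to 48901145 after 16 weeks of CDA-HFD. The 8 hepatocyte markers, Alb and Apoa1 among them, had counts in every group. In the 8-week group, replicate 3 differed from the rest: across genes, its correlation of log2 CPM (r) with the remaining 7 was 0.831 to 0.898, while among those 7 it was 0.961 to 0.994. Counts of mitochondrial genes made up 0.25% of this library and 2.22 to 5.34% of the remaining 20, its TMM scaling factor was 0.4955, and it held 1518 CPM of squamous epithelium and 2607 CPM of skeletal muscle marker transcripts. The 8-week log2 changes of the 10 genes are therefore given with and without it, and other 8-week values include it unless stated. Levels of a gene are given as CPM (counts scaled to TMM-adjusted library sizes), and levels of different genes are compared as RPKM (CPM per kilobase of exon). A gene is called higher or lower, and said to have risen or fallen, at an edgeR quasi-likelihood p under 0.05 after Benjamini-Hochberg adjustment over all 17104 genes tested.

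On chow the family was led by Elovl3. Its mean level was 797 ± 133 RPKM (SD, n = 5), or 52.6% of the summed RPKM of the 10 genes. Elovl2 came next at 233 ± 54.7 RPKM, then Elovl5 at 152 ± 44.2, Fads1 at 142 ± 20.1 and Fads2 at 116 ± 22.1 RPKM. These last 3 had overlapping ranges, and the ranges of Elovl2 (166 to 314 RPKM) and Elovl5 (108 to 211 RPKM) overlapped too. Fads6 followed at 34.6 ± 3.51, Elovl1 at 25.4 ± 2.13 and Elovl6 at 13.4 ± 1.54 RPKM, with no overlap between neighbours in this order. Fads3 at 1.01 ± 0.193 RPKM and Elovl7 at 0.138 ± 0.0497 RPKM were the lowest, and Elovl7 rested on 8 to 28 counts per chow library.

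The order was different on CDA-HFD. Fads2 had the highest mean at 8 weeks, 182 ± 54.4 RPKM (SD, n = 8), and at 16 weeks, 151 ± 19.4 RPKM (SD, n = 8). Fads1 (126 ± 20.7 RPKM), Elovl5 (120 ± 41.7 RPKM), Elovl2 (113 ± 39.1 RPKM) and Elovl3 (72.5 ± 44.7 RPKM) followed at 8 weeks, with ranges that overlapped from each to the next. At 16 weeks Fads1 (111 ± 6.72 RPKM), Elovl5 (100 ± 21.3 RPKM) and Elovl2 (93.1 ± 21.2 RPKM) again had overlapping ranges. Elovl3 stood in place 7 at 16 weeks, at 23.5 ± 16.3 RPKM, with a range that overlapped those of Fads6 (24.3 ± 4.42 RPKM) and Elovl1 (30.9 ± 2.75 RPKM). Elovl6, Fads3 and Elovl7 held places 8, 9 and 10 in each of the 3 groups. Without replicate 3, Fads2 (167 ± 34.9 RPKM), Fads1 (132 ± 14.4 RPKM), Elovl5 (130.5 ± 32.5 RPKM), Elovl2 (122 ± 34.3 RPKM) and Elovl3 (78.7 ± 44.4 RPKM) came in the same order at 8 weeks (SD, n = 7). The share of Elovl3 in the family's RPKM was 10.4% at 8 weeks and 4.32% at 16 weeks, while that of Fads2 was 7.66% on chow, 26.2% at 8 weeks and 27.7% at 16 weeks.

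Summed over the 10 genes, the level was 1514 ± 152 RPKM on chow, 695 ± 106 RPKM at 8 weeks and 544 ± 59.4 RPKM at 16 weeks. The lowest chow liver (1309 RPKM) lay above the highest liver on the diet (859 RPKM). Without Elovl3, the other 9 genes summed to 718 ± 137 RPKM on chow, 623 ± 104 RPKM at 8 weeks and 520 ± 62.4 RPKM at 16 weeks, and the chow range (573 to 929 RPKM) overlapped those at 8 weeks (449 to 805 RPKM) and 16 weeks (448 to 624 RPKM). Without replicate 3 the 8-week sums were 700.3 ± 113 RPKM for all 10 genes and 622 ± 112 RPKM without Elovl3 (SD, n = 7). All these sums rest on the TMM factors, which were 0.8109 to 0.8789 on chow and 1.1503 to 1.2961 at 16 weeks. A higher factor lowers a liver's level, so the differences in summed level between groups depend on this scaling. The sums were not computed with libraries scaled by total counts alone.

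**Figure D1:**
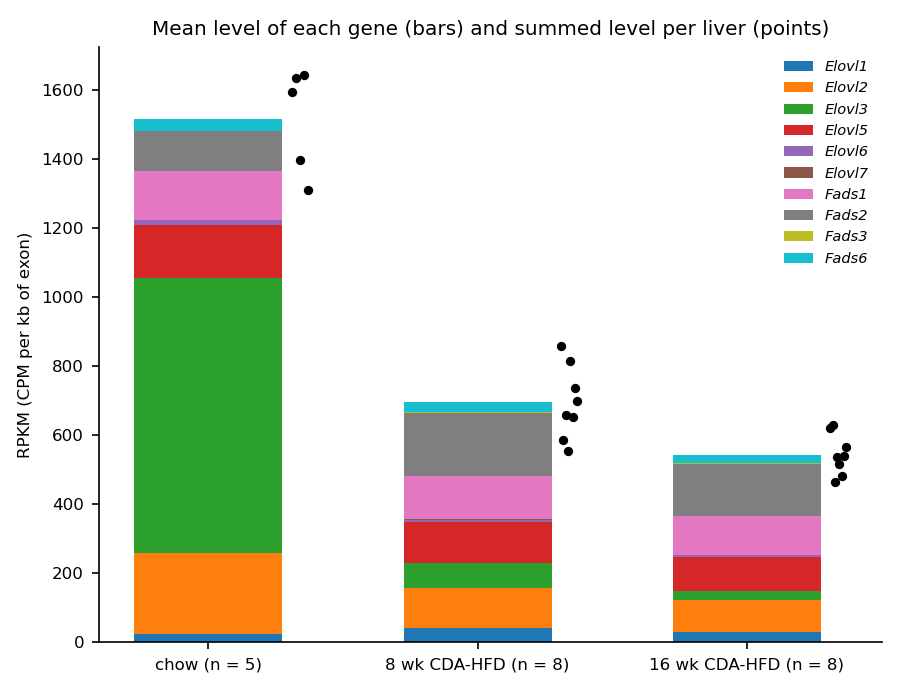
Stacked bars give the mean level of each of the 10 genes in RPKM (CPM per kilobase of exon, linear axis from 0) for 5 chow livers, 8 livers after 8 weeks and 8 livers after 16 weeks of CDA-HFD, and black points give the summed level of each liver. The Elovl3 segment is 797 RPKM on chow, 72.5 RPKM at 8 weeks and 23.5 RPKM at 16 weeks.

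After 8 weeks of CDA-HFD, 7 of the 10 genes differed from chow. The elongases Elovl3, Elovl6 and Elovl2 had fallen, and Elovl7, Elovl1, Fads2 and Fads3 had risen. The largest differences were an 11.0-fold lower Elovl3 and a 5.46-fold higher Elovl7. Against these 4 rises and 3 falls among 10 genes, 30.8% of all genes tested were called higher and 20.5% were called lower. The median log2 change of the 10 genes was -0.21, and that of all genes tested was 0.16.

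After 16 weeks, 8 of the 10 genes differed from the same chow livers. Elovl3, Elovl6, Elovl2, Elovl5, Fads6 and Fads1 were lower, and Elovl7 and Fads3 were higher. Elovl3 was 33.9-fold lower, Elovl7 11.8-fold higher and Fads3 3.8-fold higher. Of all genes tested, 29.4% were called higher and 22.5% lower at this time, against 2 and 6 of the 10 genes. Leaving out 8-week replicate 3 gave 4 higher and 6 lower among the 10 genes, beside 5953 and 5355 of all genes. A fit of only the chow and 16-week groups also gave 4 and 6, beside 5999 and 5850. The median log2 change was -0.43 over the 10 genes and 0.03 over all genes tested.

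Scaling bears on the small changes. With libraries scaled by total counts alone in place of TMM factors, the median log2 change of all genes moved up by 0.118 at 8 weeks, 0.528 at 16 weeks and 0.376 between the diet groups. Under that scaling 6016 genes were called higher and 1669 lower at 8 weeks, where the TMM fit called 5269 and 3503, and at 16 weeks 8449 and 986, where it called 5026 and 3847. Of the 10 genes, 4 were called higher and 3 lower at 16 weeks with total counts alone, where the TMM fit called 2 and 6. At 8 weeks both scalings called 4 higher and 3 lower. Relative to the median of all genes, the 10 genes had the same sign under both scalings in 30 of 30 values, which differed by at most 0.17. A change of scaling shifts all genes by nearly the same amount, and subtracting the median removes that shift. This agreement was therefore largely built in and is no test of the scaling. The log2 changes themselves moved: at 16 weeks Fads1 went from -0.36 to 0.18 and Fads6 from -0.51 to 0.01.

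**Figure D2:**
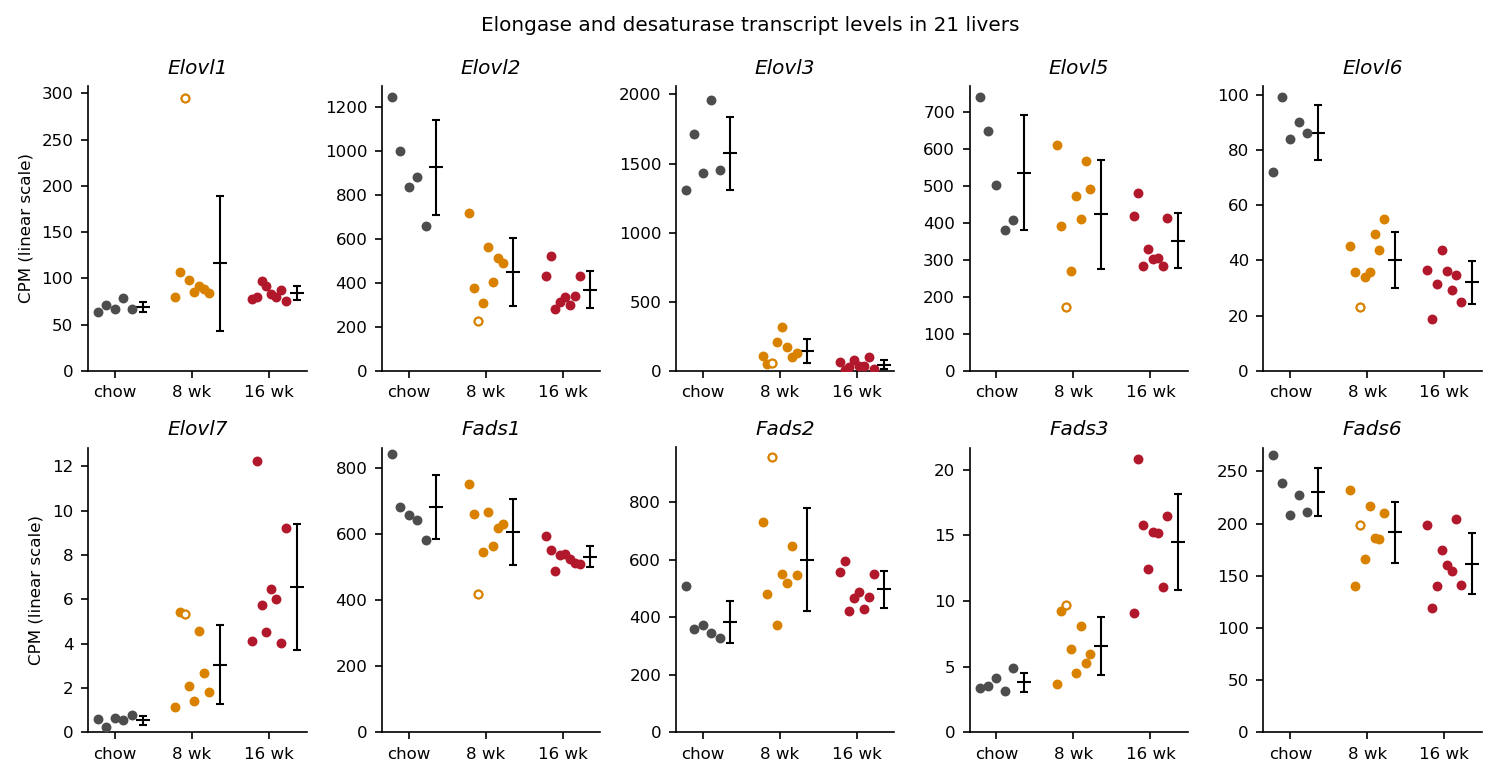
Each panel shows the level of a gene in CPM (linear axis from 0) with 1 point per liver (5 chow, 8 at 8 weeks, 8 at 16 weeks of CDA-HFD), the horizontal tick and bar giving mean and SD and the open circle marking replicate 3 of the 8-week group. All 16 diet livers lie below all chow livers for Elovl3 and Elovl6 and above them for Elovl7.

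Among the elongases of saturated and monounsaturated chains, Elovl3 changed most. Its expression in mouse liver is known to be male-biased and to follow the daily cycle. The 5 chow livers held 1311, 1711, 1430, 1963 and 1452 CPM. After 8 weeks its lowest, median and highest levels were 51.8, 118 and 318 CPM, and after 16 weeks 9.90, 36.3 and 99.9 CPM. Every diet liver was thus below every chow liver, and the 2 diet groups overlapped. The chow mean of 1574 ± 262 CPM (SD, n = 5) fell to 143 ± 88.2 CPM at 8 weeks (SD, n = 8; log2 change -3.46, SE 0.49, edgeR adjusted p = 7.79e-06), and without replicate 3 the log2 change was -3.35 (edgeR adjusted p = 7.54e-06). At 16 weeks it was 46.4 ± 32.1 CPM (SD, n = 8; log2 change -5.08, SE 0.51, edgeR adjusted p = 6.24e-08). In bulk tissue, fewer cells of a type and less RNA per cell cannot be told apart. Beside this fall, hepatocyte markers summed to 109400 to 154900 CPM on chow, 104100 to 387900 CPM at 8 weeks (the highest in replicate 3) and 80500 to 113400 CPM at 16 weeks. Of these 8 markers, 2 were called higher and 3 lower at 8 weeks (1 and 3 without replicate 3), and 0 higher and 5 lower at 16 weeks (median log2 change -0.90), and their part in the lower elongase levels was not tested.

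Elovl6, a known target of SREBP-1c in lipogenesis, was lower in every diet liver than in every chow liver. On chow it was at 71.9, 99.2, 84.0, 90.3 and 86.3 CPM. Its lowest, median and highest levels were 23.2, 39.8 and 54.9 CPM at 8 weeks and 18.7, 33.2 and 43.7 CPM at 16 weeks. The fall was 2.14-fold at 8 weeks (log2 change -1.10, SE 0.19, edgeR adjusted p = 6.67e-05) and 2.70-fold at 16 weeks (log2 change -1.43, SE 0.19, edgeR adjusted p = 1.64e-06). Without replicate 3 of the 8-week group the first of these log2 changes was -1.03.

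Elovl1, which makes the very long saturated chains used in sphingolipids, was higher at 8 weeks, but its size depended on replicate 3. Chow livers held 63.5, 71.2, 66.5, 78.3 and 66.5 CPM. The lowest, median and highest levels at 8 weeks were 80.2, 90.5 and 295 CPM, the last in replicate 3, and at 16 weeks 76.1, 81.9 and 97.6 CPM. All 8-week livers lay above all chow livers, and the 16-week range overlapped that of chow. The log2 change at 8 weeks was 0.75 (SE 0.25, edgeR adjusted p = 0.0178), and 0.38 without replicate 3 (edgeR adjusted p = 0.000844), where the mean was 90.8 ± 9.22 CPM (SD, n = 7). A fit of only the chow and 8-week groups did not call it (log2 change 0.69, edgeR adjusted p = 0.0941). At 16 weeks Elovl1 was not called (log2 change 0.28, 95% interval -0.23 to 0.80, edgeR adjusted p = 0.358). It was called under 4 of the alternatives. With replicate 3 of the 8-week group out of the fit, the same log2 change of 0.28 had an edgeR adjusted p of 0.00607. In a fit of only the chow and 16-week groups (edgeR adjusted p = 0.00717), and without 7 diet libraries with transcripts of other tissues (edgeR adjusted p = 0.0244), it was 0.27. With total counts alone it was 0.81 (edgeR adjusted p = 5.31e-05).

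Elovl7, an elongase of saturated chains with low levels in normal liver, rose from the lowest level of the family. The chow livers held 0.588, 0.230, 0.641, 0.550 and 0.767 CPM. Its lowest, median and highest levels were 1.15, 2.39 and 5.43 CPM at 8 weeks and 4.03, 5.89 and 12.3 CPM at 16 weeks. No diet liver overlapped the chow range. The rise was 5.46-fold at 8 weeks (log2 change 2.45, SE 0.44, edgeR adjusted p = 0.000118) and 11.8-fold at 16 weeks (log2 change 3.56, SE 0.45, edgeR adjusted p = 1.31e-06). Without replicate 3 the log2 change at 8 weeks was 2.29.

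Of the elongases of polyunsaturated chains, Elovl2 fell at both times. This enzyme carries out the late elongation steps towards docosahexaenoic acid. Chow livers held 1244, 1000, 838, 883 and 659 CPM. The lowest, median and highest levels were 227, 448 and 717 CPM at 8 weeks and 282, 337 and 524 CPM at 16 weeks. The 8-week range overlapped the lowest chow liver, and the 16-week range did not overlap chow. The chow mean of 925 ± 217 CPM (SD, n = 5) fell to 450.1 ± 155 CPM at 8 weeks (SD, n = 8; log2 change -1.04, SE 0.22, edgeR adjusted p = 0.000713; -0.95 without replicate 3). At 16 weeks it was 369 ± 84.1 CPM (SD, n = 8; log2 change -1.32, SE 0.22, edgeR adjusted p = 3.86e-05).

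Elovl5, which acts earlier in the same route, differed less. Its chow levels were spread over 742, 649, 501, 380 and 408 CPM. Its lowest, median and highest levels were 172, 442 and 611 CPM at 8 weeks and 284, 317 and 481 CPM at 16 weeks, so both diet groups overlapped chow. At 8 weeks the log2 change was -0.34 (95% interval -0.84 to 0.16, edgeR adjusted p = 0.243), and -0.23 without replicate 3 (edgeR adjusted p = 0.322). At 16 weeks it was -0.61 (SE 0.24, edgeR adjusted p = 0.0405), a call that was lost when any of 8 single libraries was left out: chow replicates 1, 2 and 3 and 16-week replicates 3, 4, 5, 6 and 7. Without these the log2 change ran from -0.63 without chow replicate 3 (edgeR adjusted p = 0.0554) to -0.46 without chow replicate 1 (edgeR adjusted p = 0.146). With total counts alone as scaling it was -0.07 (edgeR adjusted p = 0.856), and it was not called without a filter on low counts (edgeR adjusted p = 0.0871) or with a filter at a mean of 1 CPM (edgeR adjusted p = 0.052). Of 28 alternatives, 11 lost the call and 17 kept it. Among those that kept it was the fit without 8-week replicate 3 (log2 change -0.61, edgeR adjusted p = 0.00798).

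The delta-6 and delta-5 desaturases, neighbours on chromosome 19, moved apart. Fads2, the delta-6 desaturase that begins the polyunsaturated route, was at 509, 360.4, 372, 344 and 326 CPM on chow, the highest in replicate 1. Its lowest, median and highest levels were 373, 548 and 957 CPM at 8 weeks, the highest in replicate 3, and 421, 479 and 597 CPM at 16 weeks. Both diet ranges overlapped the highest chow liver, while all 16 diet livers lay above the other 4 chow livers. At 8 weeks Fads2 rose 1.57-fold (log2 change 0.65, SE 0.18, edgeR adjusted p = 0.00554), and by 0.51 on the log2 scale without replicate 3 (edgeR adjusted p = 0.0048). At 16 weeks its log2 change was 0.38 (95% interval 0.01 to 0.75) and was not called (edgeR adjusted p = 0.0823). That result passed the threshold without chow replicate 1 (log2 change 0.50, edgeR adjusted p = 0.0307), without 8-week replicate 3 (0.38, edgeR adjusted p = 0.0229) and in a fit of only the chow and 16-week groups (0.36, edgeR adjusted p = 0.0135). It also passed without the 7 libraries with transcripts of other tissues (0.38, edgeR adjusted p = 0.0383) and with total counts alone (0.92, edgeR adjusted p = 3.72e-05).

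Fads1, the delta-5 desaturase that makes arachidonic acid, was at 842, 682, 658, 645 and 583 CPM on chow. Its lowest, median and highest levels were 420.2, 626 and 754 CPM at 8 weeks and 489, 531 and 595 CPM at 16 weeks, and both overlapped chow. At 8 weeks the log2 change was -0.17 (95% interval -0.42 to 0.09, edgeR adjusted p = 0.255), and -0.11 without replicate 3 (edgeR adjusted p = 0.301). At 16 weeks Fads1 was lower by a log2 change of -0.36 (SE 0.12, edgeR adjusted p = 0.017) in the TMM fit, and higher by 0.18 with total counts alone (edgeR adjusted p = 0.447). The call was lost without chow replicate 1 (log2 change -0.27, edgeR adjusted p = 0.0803) and without a filter on low counts (log2 change -0.32, edgeR adjusted p = 0.0926).

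The ratio of Fads2 to Fads1 within a liver does not depend on library scaling. In RPKM it was 0.815 ± 0.0444 (SD, n = 5; range 0.771 to 0.882) on chow, 1.52 ± 0.752 (SD, n = 8; range 0.997 to 3.33, median 1.3) at 8 weeks and 1.36 ± 0.143 (SD, n = 8; range 1.19 to 1.58) at 16 weeks. The ratio of 3.33 was that of replicate 3, without which the 8-week value was 1.26 ± 0.187 (SD, n = 7; range 0.997 to 1.52). Every diet liver had a higher ratio than every chow liver. The ratio was chosen after the values of both genes were seen and is given as a description.

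Fads3, which places a double bond in the sphingoid base of ceramides, rose at both times and stayed low. Chow livers held 3.35, 3.50, 4.15, 3.13 and 4.93 CPM. The lowest, median and highest levels were 3.71, 6.12 and 9.67 CPM at 8 weeks and 9.05, 15.2 and 20.8 CPM at 16 weeks. The 8-week range overlapped chow, and the 16-week range lay wholly above it. The log2 change was 0.79 at 8 weeks (SE 0.23, edgeR adjusted p = 0.00792; 0.68 without replicate 3) and 1.93 at 16 weeks (SE 0.24, edgeR adjusted p = 9.46e-07).

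Fads6, a family member whose substrates are little known, was at 266, 239, 208, 228 and 211 CPM on chow. Its lowest, median and highest levels were 141, 192 and 232 CPM at 8 weeks and 120, 157 and 205 CPM at 16 weeks. The 8-week range overlapped chow, and the 16-week range lay below it. At 8 weeks the log2 change was -0.26 (95% interval -0.54 to 0.02, edgeR adjusted p = 0.107), and -0.28 without replicate 3 (edgeR adjusted p = 0.0663). At 16 weeks Fads6 was lower by a log2 change of -0.51 (SE 0.13, edgeR adjusted p = 0.00311) in the TMM fit, while with total counts alone the log2 change was 0.01 (edgeR adjusted p = 0.946).

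**Figure D3:**
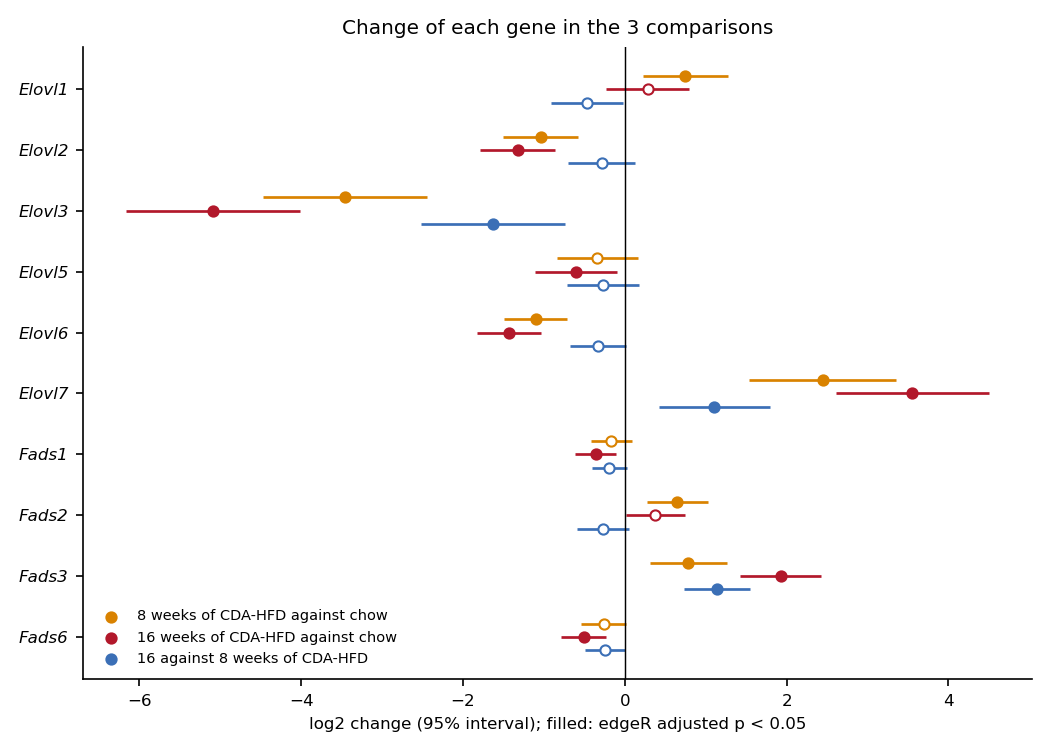
Points give the log2 change of each gene in the 3 comparisons and bars its 95% interval, with filled points where the edgeR adjusted p was under 0.05. Elovl3 lies at -3.46 and -5.08 against chow and Elovl7 at 2.45 and 3.56, and the intervals of 16 against 8 weeks for Elovl3, Elovl7 and Fads3 do not reach 0. In that comparison the interval of Elovl1 (-0.91 to -0.02) does not reach 0 either, and that of Fads6 ends at about 0. Neither gene was called, as intervals are not adjusted for the number of genes tested.

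Between 8 and 16 weeks of CDA-HFD, 3 of the 10 genes differed. Elovl3 fell further, and Elovl7 and Fads3 rose further. Of all genes tested, 10.6% were called higher and 11% lower at 16 than at 8 weeks, against 2 and 1 of the 10 genes. Under total counts alone the split over all genes was 4450 higher and 245 lower, where the TMM fit gave 1814 and 1889. Elovl3 was 3.09-fold lower (log2 change -1.63, SE 0.43, edgeR adjusted p = 0.0121), Fads3 2.21-fold higher (log2 change 1.14, SE 0.20, edgeR adjusted p = 0.000548) and Elovl7 2.16-fold higher (log2 change 1.11, SE 0.33, edgeR adjusted p = 0.0234). Single livers of the 2 diet groups overlapped for each of the 3 genes. The Elovl7 call was lost without 16-week replicate 2 (log2 change 0.92, edgeR adjusted p = 0.0572) or 16-week replicate 8 (log2 change 1.02, edgeR adjusted p = 0.0537).

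The other 7 genes had log2 changes from -0.47 (Elovl1) to -0.19 (Fads1) between 8 and 16 weeks and were not called. Without replicate 3 of the 8-week group, Elovl6 (log2 change -0.41, edgeR adjusted p = 0.0389) and Fads1 (log2 change -0.25, edgeR adjusted p = 0.0296) passed the threshold as lower at 16 weeks, and Elovl1 was at -0.10. With total counts alone none of these 7 passed, and their log2 changes ran from 0 for Elovl6 to 0.18 for Fads1 and Fads2.

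On chow, replicate 1 was the highest of the 5 livers for Elovl2, Elovl5, Fads1, Fads2 and Fads6 and the lowest for Elovl1, Elovl3 and Elovl6. At 16 weeks, replicate 2 was the highest for Elovl2, Elovl5, Elovl7, Fads2 and Fads3 and the lowest for Elovl3, Elovl6 and Fads6. At 8 weeks, replicate 1 was the highest for Elovl2, Elovl5, Fads1 and Fads6. Replicate 3 of that group was the highest for Elovl1, Fads2 and Fads3 and the lowest for Elovl2, Elovl5, Elovl6 and Fads1, and the lowest Elovl3 was in replicate 2.

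Bile duct, macrophage and stellate cell transcripts were also higher on the diet, as Elovl7 and Fads3 were. The 7 bile duct markers, Krt7, Krt19, Epcam and Spp1 among them, all had counts in each group. Their sum was 76.3 to 110.1 CPM on chow, 125 to 506 CPM at 8 weeks and 487 to 1560 CPM at 16 weeks, and 5 of 7 were called higher at 8 weeks (4 without replicate 3) and 7 of 7 at 16 weeks. Most of the sum is Spp1 (means of 50.9, 194 and 868 CPM in the 3 groups), which macrophages also make. The keratin-rich duct cells are marked more narrowly by Epcam, which had 1.31 ± 0.231 CPM on chow (SD, n = 5) and rose to 29.3 ± 13.6 CPM at 16 weeks (SD, n = 8; log2 change 4.48, SE 0.51, edgeR adjusted p = 3.25e-07). Among 8-week livers, replicate 2 had the highest marker sum (506 CPM) and the highest Elovl7 (5.43 CPM), and replicate 1 had the lowest sum (125 CPM) and the lowest Elovl7 (1.15 CPM) and Fads3 (3.71 CPM). Replicate 3 went against this, with a sum of 152 CPM beside 5.35 CPM of Elovl7 and 9.67 CPM of Fads3. At 16 weeks replicate 2 had the highest sum (1560 CPM) and the highest Elovl7 (12.3 CPM) and Fads3 (20.8 CPM), and replicate 1 the lowest sum (487 CPM) and the lowest Fads3 (9.05 CPM). The lowest Elovl7 at 16 weeks (4.03 CPM) was in replicate 7, with a sum of 683 CPM. Macrophage markers summed to 318 to 432 CPM on chow, 1290 CPM (replicate 1) to 7001 CPM (replicate 3) at 8 weeks and 2578 CPM (replicate 1) to 4519 CPM (replicate 8) at 16 weeks. Stellate cell and fibroblast markers summed to 239 to 375 CPM on chow, 724 CPM (replicate 1) to 1802 CPM (replicate 6) at 8 weeks and 1536 CPM (replicate 4) to 2327 CPM (replicate 8) at 16 weeks. The 8-week liver with the least Elovl7 and Fads3, replicate 1, was thus lowest for all 3 lists. This was not particular to them. Replicate 1 was also lowest for T and B cell (12.4 CPM), squamous epithelium (2.57 CPM), skeletal muscle (1.06 CPM) and exocrine pancreas markers (16.8 CPM). It was not lowest for hepatocyte, endothelial or fat tissue markers. The part of these cell types in the rise of the 2 genes was not tested.

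**Figure D4:**
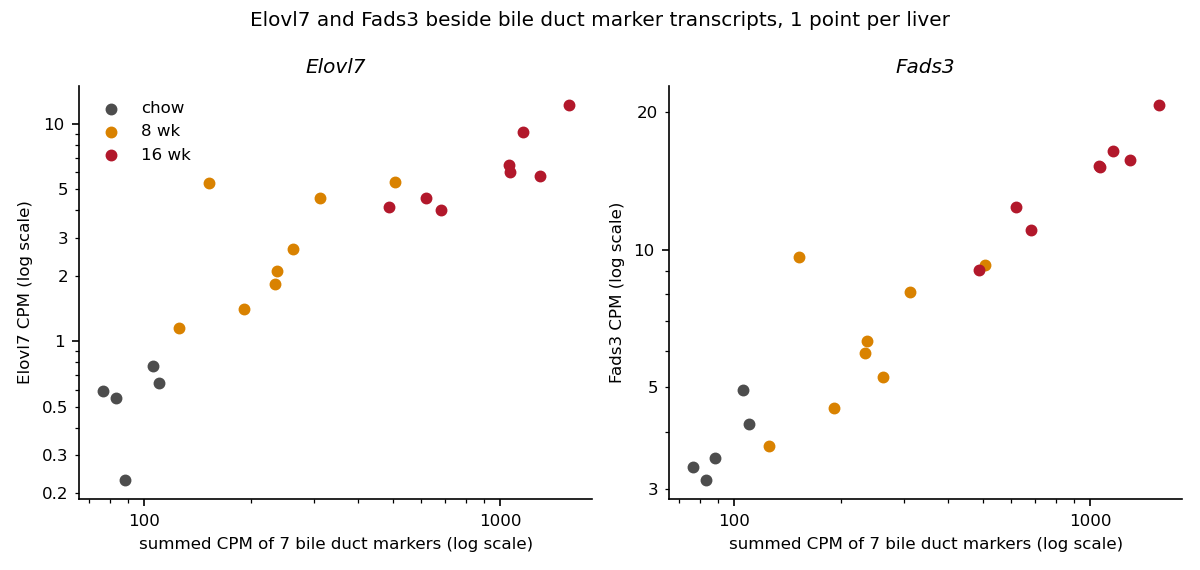
Each point is a liver, with the summed CPM of 7 bile duct markers on the x axis and the CPM of Elovl7 (left) or Fads3 (right) on the y axis, both on log scales, and colours for chow, 8 weeks and 16 weeks of CDA-HFD. Levels are highest in the 16-week liver with 1560 CPM of markers, and the 8-week liver with 152 CPM of markers and high levels of both genes is replicate 3.

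The genes with the most similar pattern were found by the root mean square difference of log2 CPM, centred per gene, over the 21 libraries. Candidates were genes with a mean of at least 5 CPM. Nearest to Elovl3 were Mup14, a major urinary protein gene with close copies among which reads may be shared (0.63), and Ugt2b38, a male-biased glucuronosyltransferase (0.83), against a median distance of 2.24 over 10503 genes. Because both were picked for their likeness to Elovl3 in these libraries, a fall with it was part of the choice. Mup14 had means of 183 CPM on chow, 15.8 CPM at 8 weeks and 5.59 CPM at 16 weeks. Ugt2b38 had 29.7, 1.64 and 0.877 CPM. Nearest to Elovl7 were Src, a tyrosine kinase (0.28), and Tmem132a (0.33), and to Fads3 were Cbx6 and Golm1 (both 0.22 to 0.23), against medians of 1.27 and 0.94.

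Among the family itself, Elovl7 and Fads3 were each other's nearest, at 0.48, as were Fads1 and Fads6, at 0.24, and Elovl1 and Fads2, at 0.37. Elovl1 and Fads2 both had their highest 8-week level in replicate 3, and the distances were not computed without that library. Elovl2 lay nearest to Elovl5 (0.35), Elovl5 to Fads1 (0.31) and Elovl6 to Elovl2 (0.46). Elovl3 stood alone, its nearest family member being Elovl6 at 1.68. Elovl2 had Gldc, of glycine breakdown (0.20), and Dbt, of branched-chain amino acid breakdown (0.22), as its nearest genes of all. For the others these were Pcsk6 and Akap17b (Elovl6, both 0.20), Itih2 and Gk (Elovl5, 0.25 and 0.26), Dld and Ggnbp2 (Fads1, 0.10 and 0.11), BC052040 and Tmem268 (Fads2, 0.20 and 0.21), Stra6l and D2hgdh (Fads6, 0.12 and 0.13) and Sept9 and Ddx24 (Elovl1, both 0.09). A gene that varies little is near to many genes, so that distances compare only between candidates for the same gene.

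The enzymes that work with the elongases and desaturases were read from lists of the pathway. The delta-9 desaturase Scd1, which makes the monounsaturated substrates of several elongases, had a mean of 8979 ± 1417 CPM on chow (SD, n = 5) and fell to 143 ± 58.9 CPM at 8 weeks (SD, n = 8), with 291 ± 147 CPM at 16 weeks (SD, n = 8). Between the diet groups Scd1 rose (log2 change 1.03, SE 0.29, edgeR adjusted p = 0.0186), where Elovl3 fell. Scd2 rose instead, from 11.3 ± 1.85 CPM on chow to 22.7 ± 8.22 CPM at 8 weeks and 44.2 ± 5.84 CPM at 16 weeks (log2 change 1.98, edgeR adjusted p = 1.39e-06). In this list of 7 further desaturases and elongases, 6 were tested: 2 were higher and 2 lower at 8 weeks, and 3 higher and 2 lower at 16 weeks (median log2 changes 0.63 and 1.05). Without 8-week replicate 3, a choice made after seeing the data, 1 gene of the list fell below the filter, and of the remaining 5, 1 was higher and 2 lower at 8 weeks (median 0.11), and 2 higher and 2 lower at 16 weeks (median 0.13).

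Elongation needs malonyl-CoA and a palmitate primer. Of the 8 genes of this supply, 6 were lower at 8 weeks and 7 at 16 weeks, with 0 higher (median log2 changes -1.14 and -1.60). Without 8-week replicate 3, 6 were lower at 8 weeks and 8 at 16 weeks, with 0 higher. Thrsp, a lipogenic regulator, fell from 195 ± 39.3 CPM to 22.2 ± 11.4 CPM at 8 weeks (log2 change -3.14, edgeR adjusted p = 1.04e-05). Acacb, an acetyl-CoA carboxylase, fell from 155 ± 36.4 CPM to 27.8 ± 15.3 CPM (log2 change -2.48, edgeR adjusted p = 9.66e-07). The other acetyl-CoA carboxylase gene, Acaca, was lower by less, with log2 changes of -0.4 at 8 weeks and -0.69 at 16 weeks. Me1, which supplies NADPH, fell from 92.4 ± 24.4 CPM to 14.5 ± 5.62 CPM (log2 change -2.67, edgeR adjusted p = 8.23e-08).

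The elongation cycle is completed by a ketoacyl reductase, dehydratases and an enoyl reductase. Of 6 such genes tested, 1 was higher and 1 lower at 8 weeks (1 and 2 without replicate 3), and 1 was higher and 4 lower at 16 weeks (median log2 changes 0.04 and -0.54). Hsd17b12, the ketoacyl-CoA reductase, fell from 233 ± 22.2 CPM to 164 ± 34.01 CPM at 8 weeks and 141 ± 15.2 CPM at 16 weeks (log2 changes -0.51 and -0.73, edgeR adjusted p = 0.00643 and 0.000205). Hacd4, a dehydratase family member, rose from 1.38 ± 0.163 CPM to 3.23 ± 1.72 and 6.24 ± 1.68 CPM. Of the 5 electron donors of the desaturases that were tested, 1 was higher and 1 lower at 8 weeks (1 and 3 without replicate 3). At 16 weeks 1 was higher and 3 lower (1 and 4 without 8-week replicate 3). The median log2 changes were -0.26 and -0.66. Cyb5b, a cytochrome b5, fell from 1042 ± 104 CPM to 513 ± 67.0 and 372 ± 74.0 CPM, and Cyb5r1, a cytochrome b5 reductase, rose from 8.83 ± 0.627 CPM to 17.6 ± 5.17 and 23.6 ± 3.53 CPM.

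Docosahexaenoic acid is finished by a round of chain shortening in peroxisomes. Of 9 genes of that step, 3 were higher and 4 lower at 8 weeks (2 and 6 without replicate 3). At 16 weeks 1 was higher and 5 lower (1 and 6 without 8-week replicate 3). The median log2 changes were -0.70 and -0.96. Abcd3, a peroxisomal transporter, fell from 935 ± 70.3 CPM to 380.2 ± 97.7 CPM at 8 weeks (log2 change -1.30, edgeR adjusted p = 2.22e-06) and 313 ± 41.2 CPM at 16 weeks. Abcd2, a transporter of very long chains, rose at 8 weeks from 14.8 ± 9.25 CPM on chow to 35.5 ± 13.8 (log2 change 1.27, edgeR adjusted p = 0.00455). The 10 tested ligases and acyltransferases that handle polyunsaturated chains were split, with 4 higher and 3 lower at 8 weeks and 3 higher and 2 lower at 16 weeks (median log2 changes -0.06 and -0.18). Without 8-week replicate 3, 4 were higher and 3 lower at 8 weeks, and 3 and 3 at 16 weeks. Acsl1 fell from 1959 ± 387 CPM to 622 ± 258 CPM at 8 weeks, and Lpcat2 rose from 3.35 ± 0.439 CPM to 10.8 ± 3.35 CPM.

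Eicosanoid enzymes, which use arachidonic acid, were higher in 9 of 12 cases at 8 weeks and 7 of 12 at 16 weeks, with 0 lower (median log2 changes 1.79 and 1.94). Without 8-week replicate 3, 9 were higher at 8 weeks and 9 at 16 weeks, with 0 lower. Alox5ap, which presents arachidonic acid to the lipoxygenase, rose from 3.53 ± 0.849 CPM to 26.3 ± 9.06 CPM at 8 weeks and 29.8 ± 7.25 CPM at 16 weeks (log2 changes 2.89 and 3.07, edgeR adjusted p = 3.39e-08 and 6.93e-09). Macrophages express Alox5ap, and macrophage markers summed to 318 to 432 CPM on chow, 1290 to 7001 CPM at 8 weeks and 2578 to 4519 CPM at 16 weeks, with 8 of 8 and 7 of 8 markers called higher. Their part in the eicosanoid genes was not tested. Of the 4 ceramide synthases tested, 2 were higher and 1 lower at each time (median log2 changes 0.32 and 0.50), with Cers5 rising from 3.18 ± 0.336 CPM to 9.79 ± 3.14 and 12.6 ± 2.24 CPM and Cers2, which takes the very long chains, falling from 463 ± 49.4 CPM to 383 ± 21.3 and 346 ± 33.7 CPM.

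Of 12 transcription factors and sensors known to control the family, 1 was higher and 4 lower at 8 weeks (1 and 7 without replicate 3). At 16 weeks 1 was higher and 7 lower (2 and 9 without 8-week replicate 3). The median log2 changes were -0.40 and -0.59. Ppara, the fatty acid receptor that induces Fads2, fell from 116 ± 20.9 CPM to 46.3 ± 22.2 CPM at 8 weeks and 44.1 ± 18.0 CPM at 16 weeks (log2 changes -1.32 and -1.39, edgeR adjusted p = 0.00244 and 0.00124). Mlxipl, which encodes ChREBP, fell from 301 ± 27.6 CPM to 165 ± 45.0 and 123 ± 46.2 CPM (log2 changes -0.87 and -1.29, edgeR adjusted p = 0.00527 and 0.000117). Insig1, an SREBP-regulated sensor, fell at 16 weeks from 261 ± 27.0 CPM on chow to 113 ± 28.4 (log2 change -1.21, edgeR adjusted p = 5.36e-05).

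Male-biased liver genes, a list set beside Elovl3, were lower in 7 of 8 cases at 8 weeks and in 8 of 8 at 16 weeks (median log2 changes -2.24 and -3.19), and 4 of 8 were lower at 16 than at 8 weeks. Without 8-week replicate 3 these counts were 8, 8 and 5. Ugt2b38 fell by a log2 change of -4.18 at 8 weeks and -5.08 at 16 weeks (edgeR adjusted p = 7.41e-09 and 6.23e-10). This gene was also picked above for its likeness to Elovl3, so its fall is not a separate observation. Cyp4a12a, a fatty acid hydroxylase, fell at 8 weeks from 412 ± 165 CPM on chow to 39.4 ± 18.3 (log2 change -3.39, edgeR adjusted p = 9.88e-07). Hsd3b5, a steroid reductase, fell at 16 weeks from 277 ± 80.8 CPM on chow to 8.60 ± 11.7 (log2 change -5.01, edgeR adjusted p = 5.47e-05), and was lower at 16 than at 8 weeks (log2 change -2.69, edgeR adjusted p = 0.0166), as Elovl3 was. The list counts with all 21 libraries stand beside the shares of all genes called at each time, 30.8% higher and 20.5% lower at 8 weeks and 29.4% higher and 22.5% lower at 16 weeks. Without 8-week replicate 3, 5362 of all genes were called higher and 4386 lower at 8 weeks, and 5953 and 5355 at 16 weeks.

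**Figure D5:**
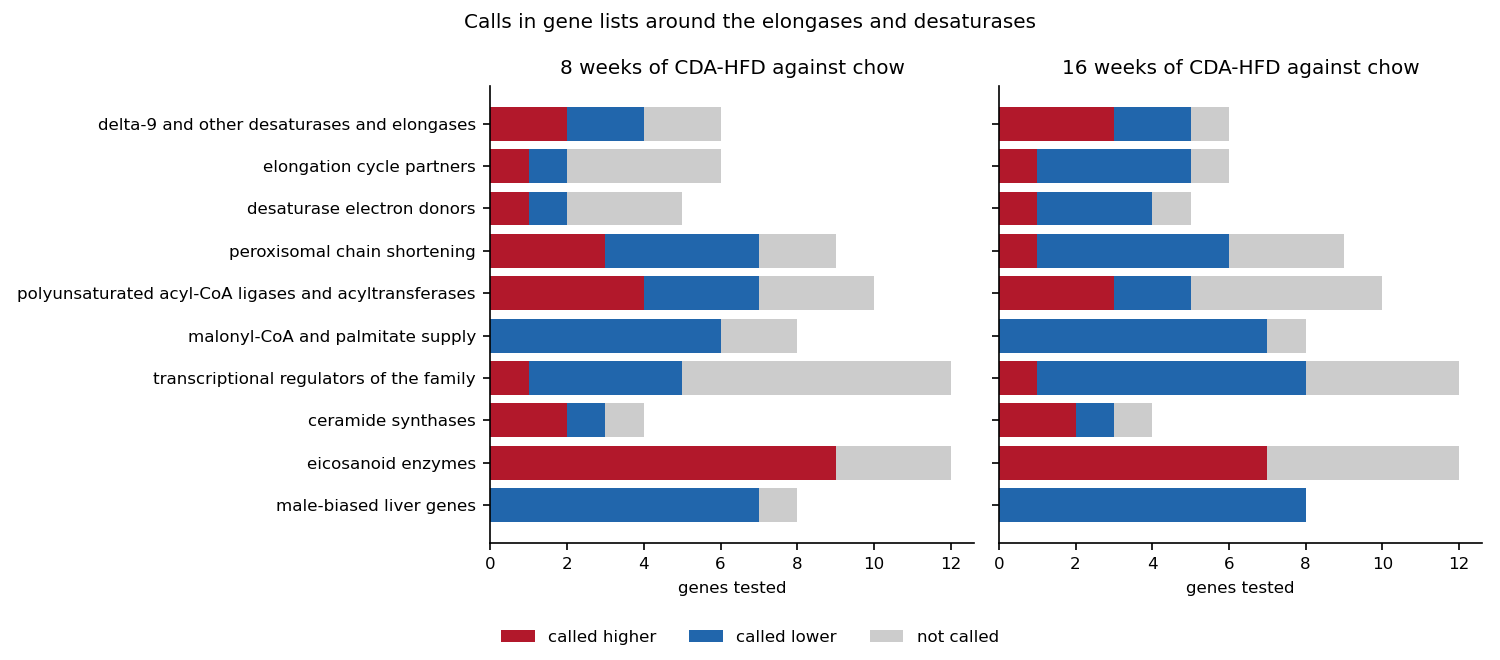
Bars count the tested genes of each list that were called higher (red), called lower (blue) or not called (grey) at 8 weeks (left) and 16 weeks (right) of CDA-HFD against chow. Malonyl-CoA supply and male-biased genes have no red segment (6 of 8 and 7 of 8 lower at 8 weeks), and eicosanoid enzymes have no blue one (9 of 12 higher at 8 weeks).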

How the data were processed

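RNA was measured in the livers of 21 mice, from total RNA prepared as stranded total RNA libraries, per the labels' protocols. The table the authors deposited holds unnormalized read counts for 52636 Ensembl gene IDs, and the submitters' processing notes name the build GRCm38. For the aligner, counter, annotation release and strand setting, the sources used here give nothing. Replicate numbers follow the order of listing, since the labels give none.

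Genes were filtered with filterByExpr by group, which left 17104 genes with 99.961% of the counts, and scaled with TMM factors. All 21 libraries entered 1 fit (edgeR 4.0.16, glmQLFit and glmQLFTest, R 4.3.3) with 3 contrasts. Adjusted p-values are Benjamini-Hochberg over all genes tested, called under 0.05, and intervals cover 95%. Symbols, positions and exon lengths came from GENCODE M21. The depth of 29037525 to 48901145 counts per library left 8 to 28 counts for Elovl7 in each chow library and at least 39 in each diet library. The procedure was tested on simulated data.

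The 10 genes, the gene lists and the tests were chosen with earlier results of these data known. Of each list, up to 3 called genes with the largest change per comparison could be named, and for each of the 10 genes the 2 genes nearest in pattern over log2(CPM + 0.5). Scd2 and Acaca are the exceptions and were named after their values were seen. Some list genes are not reported here by name. Alternatives were DESeq2 1.42.0 size factors and its Wald test, scaling by total counts alone, no filter, a filter at a mean of 1 CPM, a fit of only the 2 groups compared, and each library left out in turn. In another, the 7 libraries with transcripts of other tissues (8-week replicates 3, 4, 5 and 6 and 16-week replicates 1, 4 and 7) were left out together. All 7 were from the diet groups, and chow replicate 5, with 410.2 CPM of skeletal muscle markers against 410.4 CPM in 16-week replicate 4, was kept. After seeing the data, the lists and levels were also read without 8-week replicate 3. Figures were drawn with matplotlib 3.10.9.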

Additional observations from a re-analysis of the deposited data

Results flagged for a closer look

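Within groups, 30 sets of values (10 genes in 3 groups) were checked for a library far from the others, and 2 had such a library, where chance gives about 1 in 20 groups. Elovl1 in replicate 3 of the 8-week group stood at 295.3 CPM, above 80.2 to 107 CPM in the other 7 livers of that group. This library also had a TMM factor of 0.4955 and 0.25% mitochondrial counts, and their part in the Elovl1 value was not tested. Fads2 in replicate 1 of the chow group stood at 508.9 CPM, above 326 to 372 CPM in the other 4 chow livers. The change against chow differed between 16 and 8 weeks, by the test of 16 against 8 weeks, for 3 genes. The difference was -1.63 on the log2 scale for Elovl3, 1.11 for Elovl7 and 1.14 for Fads3 (edgeR adjusted p = 0.0121, 0.0234 and 0.000548).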

How the results depend on the processing

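Over 28 alternatives, 808 of the values for single genes stayed on their side of the threshold, in the same direction where called, 16 lost and 14 gained a call, and 2 reversed. Both reversals were at 16 weeks with total counts alone, where Fads1 was at 0.18 and Fads6 at 0.01 on the log2 scale, and the construction of that scaling moved the median of all genes by 0.528. Genes called at 16 against 8 weeks numbered 3703, 2226 in a fit of only these groups, and 2248 to 5132 with a library left out, the lowest without 16-week replicate 8 (2455 without 16-week replicate 5). Of the 10 genes, 3 were called in that comparison, 6 without the 7 libraries with transcripts of other tissues (Elovl6, Fads1 and Fads6 were added, at log2 changes of -0.67, -0.35 and -0.42), and 2 to 5 with a library left out, the highest without 8-week replicate 3. Beside these, 3940 of all genes were called without the 7 libraries and 4650 without 8-week replicate 3. Leaving out a library gave 7563 to 9748 genes called at 8 weeks and 8099 to 11308 at 16 weeks, with 7 and 7 to 10 of the 10 genes. The cause of these shifts was not tested. No paired analysis was possible because the labels give no replicate numbers or pairing. Low counts limit Elovl7 on chow, where 8 to 28 counts stand behind each value.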

Other observations

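Markers of other cell types, read from lists chosen with earlier results known, moved in these livers beside the elongases and desaturases. Stellate cell and fibroblast markers were called higher in 7 of 8 cases at 8 weeks and at 16 weeks, with summed levels of 239 to 375 CPM on chow, 724 to 1802 CPM at 8 weeks and 1536 to 2327 CPM at 16 weeks. T and B cell markers were higher in 6 of 8 cases and lower in 1 at 8 weeks, and higher in 7 and lower in 1 at 16 weeks. Endothelial markers were higher in 2 and lower in 1 of 7 cases at 8 weeks, and higher in 0 and lower in 1 at 16 weeks. Without 8-week replicate 3, 3 were higher and 2 lower at 8 weeks, and 1 and 2 at 16 weeks.

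Markers of tissues outside the liver were uneven between livers. Squamous epithelium markers summed to 0.184 to 0.631 CPM on chow, with counts for 4 of the 10 markers, to 2.57 to 1518 CPM at 8 weeks and to 6.35 to 241 CPM at 16 weeks. Of the 7 squamous markers tested, 7 were called higher at 8 weeks and 6 at 16 weeks. Skeletal muscle markers reached 410.2 CPM in a chow liver, 2607 CPM at 8 weeks and 420 CPM at 16 weeks, and 0 of 9 were called in any comparison with all 21 libraries. Without 8-week replicate 3, 1 of them was higher at 16 weeks than on chow, and 2 were higher at 16 than at 8 weeks. Exocrine pancreas markers reached 8645 CPM in replicate 4 of the 8-week group, against at most 31.6 CPM on chow and 16.6 CPM at 16 weeks. Of the 8 tested, 8 were called higher at 8 weeks, 0 were called at 16 weeks, and 8 were lower at 16 than at 8 weeks. Fat tissue markers summed to at most 48.7 CPM in any liver, in replicate 3 of the 8-week group.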
